A study of Mus musculus with 10 samples.

Results

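Akr1c12 and Akr1c13 encode aldo-keto reductases, enzymes that use NADPH to reduce carbonyl groups of steroids, aldehydes and other small molecules. They were followed in mouse FDB1 cells through the probes that carry these symbols in the array annotation, 1 probe for each gene, which makes 2 of 15097 genes with a symbol and 2 of 21797 probes in all. The pair was chosen from values of the same arrays, because both genes were higher in FI-Delta Y577F than in FI-Delta cells at 0 h and fell without IL-3 in both lines. Values of those 3 comparisons are therefore given as a description with no test. The comparison of the lines at 72 h is the one tested, because the stated choice does not name it. Whether its arrays played a part in the choice is not known. The 4 comparisons close a loop, however, so those 3 imply the 72 h difference apart from error. The test is thus not independent of the choice.

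The study compared RNA levels with 10 spotted two-colour arrays. FDB1, the host of both lines, is a mouse myeloid progenitor line that depends on IL-3 for growth. There were 4 RNA groups, namely FDB1 cells expressing the FI-Delta Y577F receptor mutant (Y577F below) at 72 h and at 0 h, and FDB1 cells expressing the FI-Delta receptor mutant at 72 h and at 0 h. FI-Delta is an activated form of the common beta chain of the IL-3, GM-CSF and IL-5 receptors, so both lines carried it, and Y577F has in addition a tyrosine replaced by phenylalanine. At 0 h the cells were growing in Iscove's medium with fetal calf serum and mouse IL-3. At 72 h they had been washed and kept without factor. There were no 72 h cultures with IL-3, so loss of the factor, washing and time in culture cannot be told apart. The design text gives 2 biological replicates for each line, and each line is an engineered derivative of 1 parental cell line. Because RNA was measured in bulk, fewer cells that make an RNA and less of it per cell cannot be told apart.

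Each array compared a pair of RNA groups. The 72 h RNA was set against 0 h RNA in Y577F cells on 2 arrays and in FI-Delta cells on 3, of which arrays 1 and 2 swapped the dyes of a single pair of extracts. At 0 h 3 arrays, and at 72 h 2 arrays, set Y577F RNA against FI-Delta RNA. Values are log2 ratios turned by the titles, so that 1 is a 2-fold difference and a positive value means higher at 72 h or higher in Y577F cells. The ratios are likely Cy5 over Cy3. If they ran the other way, every direction given here would turn. No level in a single RNA sample is known from ratios, so the labelled cells could not be checked by marker levels. Precision is limited by how few arrays there were. No filter on low values was applied, so both probes and all others entered the fits.

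Aldo-keto reductases bind NADPH in a barrel-shaped fold, and the AKR1C branch acts mostly as hydroxysteroid dehydrogenases, with further activity on prostaglandins and on reactive carbonyls. In mice most Akr1c genes lie together in a cluster on chromosome 13, and Akr1cl is not among the protein-coding genes of that cluster. An aldo-keto reductase gene regulated by IL-3 has been described in mouse myeloid cells.

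The promoter windows of Akr1c12 and Akr1c13 are shown because these nearby genes moved together while no other measured Akr1c gene was called in the main fits. Akr1c19, which lies between them, had no named probe. Each window runs from 250 bases before to 50 bases after the annotated start and comes from RefSeq on GRCm38.p6, at chr13:4279350-4279649 on the minus strand for Akr1c12 and at chr13:4190937-4191236 on the plus strand for Akr1c13. The sequences read 5′ to 3′, and capitals mark bases that differ from, or have no partner in, the other window where both overlap.
Akr1c12: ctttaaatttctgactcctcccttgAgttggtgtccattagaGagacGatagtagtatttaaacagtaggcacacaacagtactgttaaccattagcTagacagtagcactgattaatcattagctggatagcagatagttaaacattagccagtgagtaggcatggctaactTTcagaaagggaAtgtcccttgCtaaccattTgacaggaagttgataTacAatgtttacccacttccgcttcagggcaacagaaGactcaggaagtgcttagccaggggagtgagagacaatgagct
Akr1c13: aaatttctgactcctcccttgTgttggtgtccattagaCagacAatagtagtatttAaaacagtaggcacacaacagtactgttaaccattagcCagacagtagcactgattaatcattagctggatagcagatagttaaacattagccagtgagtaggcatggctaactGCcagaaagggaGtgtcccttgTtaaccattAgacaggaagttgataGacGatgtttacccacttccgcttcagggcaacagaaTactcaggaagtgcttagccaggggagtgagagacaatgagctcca
The alignment of these windows held 284 identical bases in 304 columns, or 93.4%. Within the 297 columns where both windows had sequence there were 12 mismatches and 1 gap, and the longest identical stretch ran for 75 bases. The other 27 pairs among 8 Akr1c promoter windows had between 45.0% and 58.8% identical columns, and the next closest pair was Akr1c13 with Akr1c19. A search of both strands found none of 5 motifs in either window. They were TTCNNNGAA, a form bound by STAT factors, TGACNNNGC, the core of the NRF2 element, AGATAA, a form of the GATA site, the E-box CACGTG and TGCATCA. In the same order, these letters occur in 8.30%, 12.4%, 11.2%, 7.15% and 3.15% of all 32851 promoter windows of the same length. Other forms of these sites were not searched, and both windows hold the related letters agatag. That the letters are missing says nothing on such other forms or on binding outside these windows.

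Without IL-3 both genes fell in both lines. In Y577F cells the log2 ratio of Akr1c12, 72 h over 0 h, was -1.54 on array 1 and -1.52 on array 2. In FI-Delta cells it was -1.73, -1.58 and -1.63 on arrays 1, 2 and 3. The drop of Akr1c12 was thus of much the same size on all 5 arrays that compared the times. For Akr1c13 the ratios were -1.22 and -0.89 in Y577F cells, and -1.64, -2.17 and -1.53 in FI-Delta cells. Every FI-Delta array showed a larger fall of Akr1c13 than either Y577F array, and array 2, the dye swap of array 1, gave the lowest value.

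At 0 h, in the presence of IL-3, Y577F cells had more RNA of both genes than FI-Delta cells. The ratio of Akr1c12, Y577F over FI-Delta, was 1.26, 1.74 and 1.52 on the 3 arrays. That of Akr1c13 was 0.65, 1.58 and 0.78, lower on each array and more spread, with array 2 above the others. At 72 h, after the fall in both lines, Y577F cells still had the higher level. Akr1c12 stood at 0.97 and 0.96 and Akr1c13 at 1.59 and 1.53 on the 2 arrays, which were of opposite dye assignment. Over all probes, deposited ratios on arrays of opposite dye correlated with r of -0.63 in the Y577F time arrays, -0.24 and -0.36 in the FI-Delta time arrays and -0.52 at 72 h, but with -0.08 and 0.04 at 0 h. All probes together therefore did not settle the relative sign of the 0 h arrays.

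**Figure D1:**
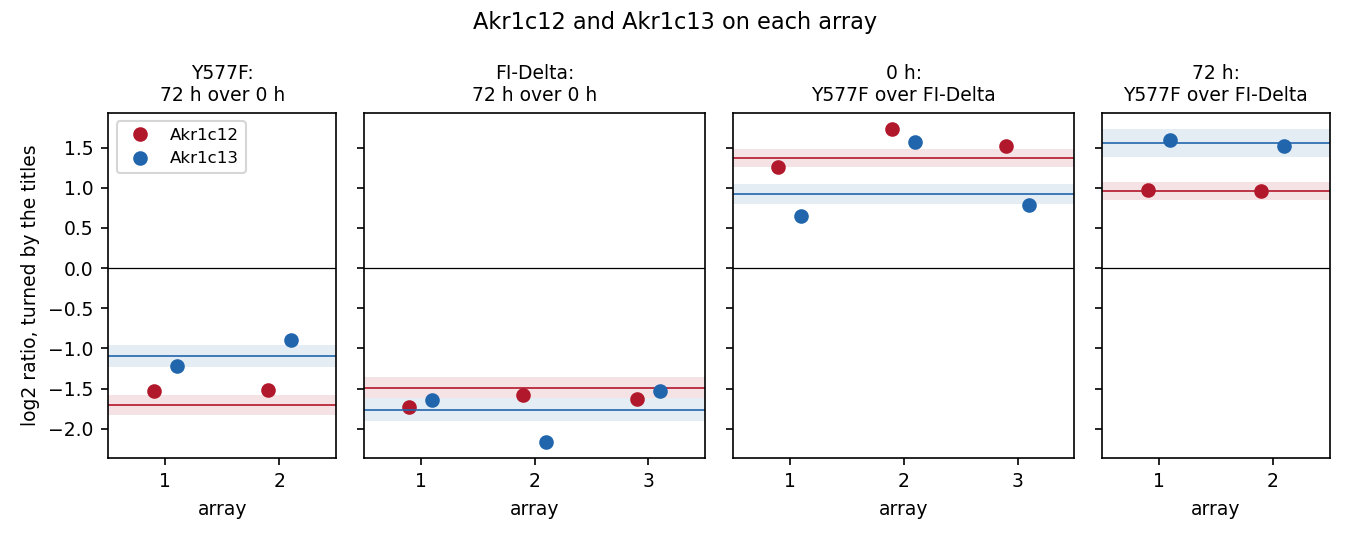
Log2 ratio of Akr1c12 (red) and Akr1c13 (blue) on each array, in 4 panels for 72 h over 0 h in Y577F and in FI-Delta cells and for Y577F over FI-Delta at 0 h and at 72 h. Lines and bands give the fitted change ± 1 standard error. All 10 points of each gene lie on the side of 0 shared by their panel, and at 72 h both Akr1c13 points (1.59 and 1.53) are above both Akr1c12 points (0.97 and 0.96).

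A linear model over all arrays, with the 4 groups and a dye term, put these values on 1 scale (limma, estimates ± standard error with 95% intervals). In Y577F cells Akr1c12 changed by -1.71 ± 0.13 (-1.98 to -1.44), a 3.27-fold drop, and in FI-Delta cells by -1.49 ± 0.13 (-1.78 to -1.21), a 2.81-fold drop. Akr1c13 changed by -1.09 ± 0.14 (-1.40 to -0.79) in Y577F cells, a 2.13-fold drop, and by -1.76 ± 0.15 (-2.08 to -1.44) in FI-Delta cells, a 3.39-fold drop. At 0 h the difference of Y577F from FI-Delta cells was 1.37 ± 0.11 (1.12 to 1.61), or 2.58-fold, for Akr1c12 and 0.93 ± 0.13 (0.65 to 1.20), or 1.90-fold, for Akr1c13. Counted from the nearer end of all 21797 probes by size of change, Akr1c12 was number 11 among declines in Y577F cells, number 24 in FI-Delta cells and number 3 among probes higher in Y577F cells at 0 h. Akr1c13 was number 79, number 12 and number 18 in the same order.

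On this scale, with FI-Delta cells at 0 h set to 0, Akr1c12 was highest in Y577F cells at 0 h (1.37 ± 0.11), next in FI-Delta cells at 0 h, then in Y577F cells at 72 h (-0.34 ± 0.14) and lowest in FI-Delta cells at 72 h (-1.49 ± 0.13). Akr1c13 had the same order, with 0.93 ± 0.13 in Y577F cells at 0 h, -0.17 ± 0.16 in Y577F cells at 72 h and -1.76 ± 0.15 in FI-Delta cells at 72 h. The middle neighbours of this order were close. Y577F cells deprived of IL-3 for 72 h were near the level of FI-Delta cells growing in it. The interval was -0.66 to -0.03 for Akr1c12 and -0.52 to 0.19, which holds 0, for Akr1c13. No array set these groups against each other, so both estimates rest on the other comparisons. For Akr1c12 those did not close around the loops described below (sums of 0.40 and 0.68). The order of these middle groups is therefore not settled for either gene.

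The difference between the lines at 72 h was called for both genes, in a test that is not independent of how the pair was chosen. Each of the 4 direct comparisons was given its own estimate, so the 72 h value came from the 2 direct arrays alone and the spread from all arrays. Akr1c12 was 1.95-fold higher in Y577F than in FI-Delta cells (0.97 ± 0.11, 95% interval 0.72 to 1.21, limma adjusted p = 0.000334). Akr1c13 was 2.95-fold higher (1.56 ± 0.17, interval 1.18 to 1.94, limma adjusted p = 0.000234). In this comparison 8.75% of all probes were called at an adjusted p under 0.05, with 4.35% (949) higher and 4.40% (959) lower in Y577F cells, and 195 of the higher ones differed at least 2-fold. By size, 213 probes lay above Akr1c12 and 50 above Akr1c13. The call held for both genes in the 12 alternative settings in which the value stayed as it was and the spread alone could differ. For Akr1c12 the adjusted p there lay between 0.000255 and 0.000883 (limma). It also held for both with arrays scaled to equal spread, where the value moved (0.91 for Akr1c12, limma adjusted p = 0.00692). With either 72 h array left out, the estimate rests on a single direct array and on the dye term, which the other arrays supply. Those values are therefore given with no test (0.86 and 1.07 for Akr1c12, 1.29 and 1.82 for Akr1c13). The same RNA extracts were used on several arrays, which the p-values do not take into account, and the 72 h RNA measured here also served in the time comparisons by which the pair was chosen. Apart from error, the comparisons that chose the pair already imply a difference at 72 h, so these p-values are not independent support for it.

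**Figure D2:**
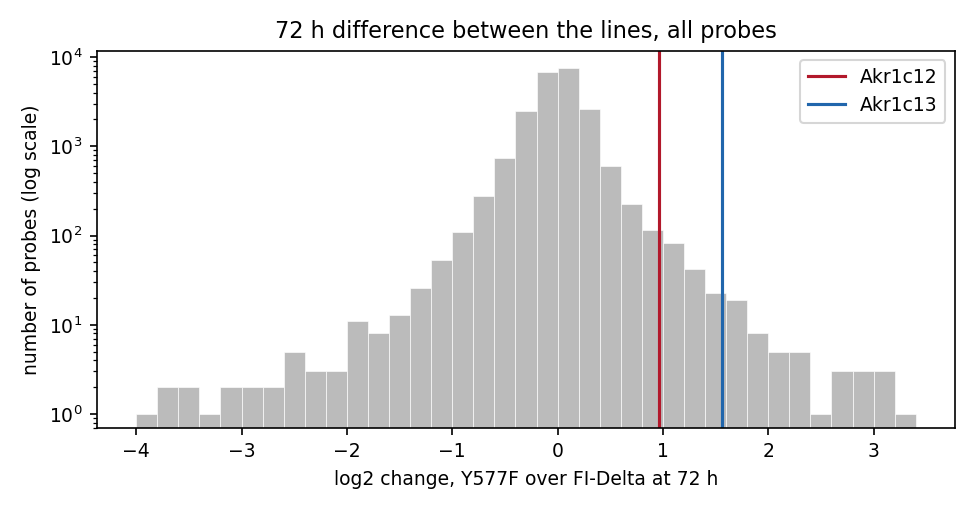
Number of probes (log scale) by log2 change, Y577F over FI-Delta at 72 h, for all 21797 probes in bins of equal width. Vertical lines mark Akr1c12 at 0.97 (red) and Akr1c13 at 1.56 (blue), with 213 and 50 probes above them.

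On these arrays the genes differed from each other in how their change was divided between line and time, which was not tested. Within arrays, where both probes met the same RNA, the log2 ratio of Akr1c12 minus that of Akr1c13 was -0.62 and -0.57 at 72 h, both below 0, and 0.61, 0.16 and 0.74 at 0 h, all above 0. It was -0.32 and -0.63 on the Y577F time arrays, and -0.09, 0.59 and -0.10 on the FI-Delta time arrays, where the signs were mixed. Hence, relative to Akr1c13, the measured Y577F over FI-Delta ratio of Akr1c12 was smaller at 72 h and larger at 0 h. The gaps at 72 h were of the same order as the loop sums of Akr1c12 described below (0.40 and 0.68). Those sums hold measurement error and the dye effect, so a difference between the genes is not established. The fitted 72 h change of Y577F minus that of FI-Delta cells was 0.67 ± 0.16 (0.32 to 1.02) for Akr1c13, which fell less in Y577F cells. For Akr1c12 it was -0.22 ± 0.14 (-0.53 to 0.10), and 0.15 ± 0.16 when each comparison was fitted from its own arrays alone, so its direction was not settled.

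The comparisons form loops of 4, around which the signed ratios of single extracts sum to 0 apart from measurement error and the dye effect. To follow a culture around a loop, the replicate numbers of the lines had to be exchanged, against the labels, on 0 h array 3 and 72 h array 2. In the loop of cultures 1 and 3 the sum was 0.40 for Akr1c12 and -0.56 for Akr1c13, beside a standard deviation of 0.516 over all probes. In the loop of cultures 2 and 4 it was 0.68 for Akr1c12 and 0.20 for Akr1c13, beside 0.495. The dye effect enters the first sum with a weight of -4 and the second with a weight of 3. Less these multiples of the fitted dye term, the sums were 0.64 and 0.50 for Akr1c12 and 0.08 and -0.27 for Akr1c13, so that for Akr1c13 the fitted dye part (-0.63) was larger than the whole first sum. The fitted dye term was 0.06 ± 0.08 for Akr1c12 (limma adjusted p = 0.707) and 0.16 ± 0.09 for Akr1c13 (limma adjusted p = 0.351).

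The other Akr1c genes, which encode hydroxysteroid dehydrogenases of related function, did not show changes of this size. With so few probes, a lack of calls among them is near the shares of all probes given here. Without intensities, a ratio near 0 from a steady RNA cannot be told apart from one of a probe with little signal. Of 8 listed paralogs 5 had a named probe, and none of these was called in any comparison, where 17.6% of all probes were called in Y577F cells over time, 8.18% in FI-Delta cells over time, 1.40% between the lines at 0 h, 8.75% at 72 h and 9.20% for the difference between the lines (4.29% higher). By direction, 9.03% rose and 8.62% fell in Y577F cells, 5.12% rose and 3.06% fell in FI-Delta cells, and 0.927% were higher and 0.473% lower in Y577F cells at 0 h, to which the counts of the lists below compare. Akr1c18, which inactivates progesterone, stood at -0.10 ± 0.12 in Y577F cells and 0.24 ± 0.12 in FI-Delta cells over time (limma adjusted p = 0.655 and 0.341), at 0.13 ± 0.11 at 0 h and at -0.22 ± 0.15 at 72 h. Akr1c6, a hydroxysteroid dehydrogenase, had 0.02, 0.15, 0.09 and -0.04 in the same order. Akr1c14 lay between -0.08 and 0.00 and Akr1c21 between -0.03 and 0.19 in these comparisons. Akr1cl had -0.07 and 0.20 over time, -0.04 at 0 h and -0.22 at 72 h (limma adjusted p = 0.295). The median of the 5 paralogs was -0.07, 0.15, -0.02 and -0.04, against 0.01, -0.01, -0.01 and 0.01 for all probes. With weights for array quality Akr1c6 (0.22) and Akr1cl (0.28) were called higher over time in FI-Delta cells, and without Y577F time array 2 Akr1c18 was called for the difference between the lines (-0.52). For Akr1c19, Akr1c20 and Akr1c22 no named probe was analysed. The probe sequences were not used here, and RNA of one paralog that binds the probe of another cannot be told apart from its own signal.

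In the RefSeq gene order of GRCm38.p6 on chromosome 13, Akr1c13 and Akr1c12 lie on either side of Akr1c19, with Akr1c18 and Akr1c14 on one flank and Akr1c6, Akr1c20 and Akr1c21 on the other. Among the 16 protein-coding genes from Calm5 to Pfkp, 10 besides the pair had 11 probes, and 4 of these 11 probes were called in at least 1 of the 4 comparisons, beside 22.5% of all probes. The transcription factor gene Klf6 rose by 0.87 ± 0.10 in Y577F cells and by 0.71 ± 0.11 in FI-Delta cells over time, opposite to Akr1c12 and Akr1c13, calls kept without any 1 array. The other three were Akr1e1, Net1 and Pitrm1, and each of their calls was lost without at least 2 of the single arrays, as was that of Klf6 at 72 h (0.56 ± 0.11).

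Among 8 probes of aldo-keto reductases outside the Akr1c branch, 2 rose over time in Y577F cells and none in FI-Delta cells. Akr1a1, the aldehyde reductase, rose by 0.62 ± 0.09 in Y577F cells (limma adjusted p = 0.000396), against 0.23 ± 0.09 in FI-Delta cells (limma adjusted p = 0.167). Akr1e1 rose by 0.29 ± 0.08 in Y577F cells (limma adjusted p = 0.0242), a call lost without either Y577F time array. At 72 h Akr1a1 was 0.54 ± 0.11 higher in Y577F than in FI-Delta cells (limma adjusted p = 0.00854), which was lost without either 72 h array. No member of this list was called at 0 h, where Akr1a1 had 0.20 ± 0.08 (limma adjusted p = 0.317). In no comparison was one of the 8 called lower.

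**Figure D3:**
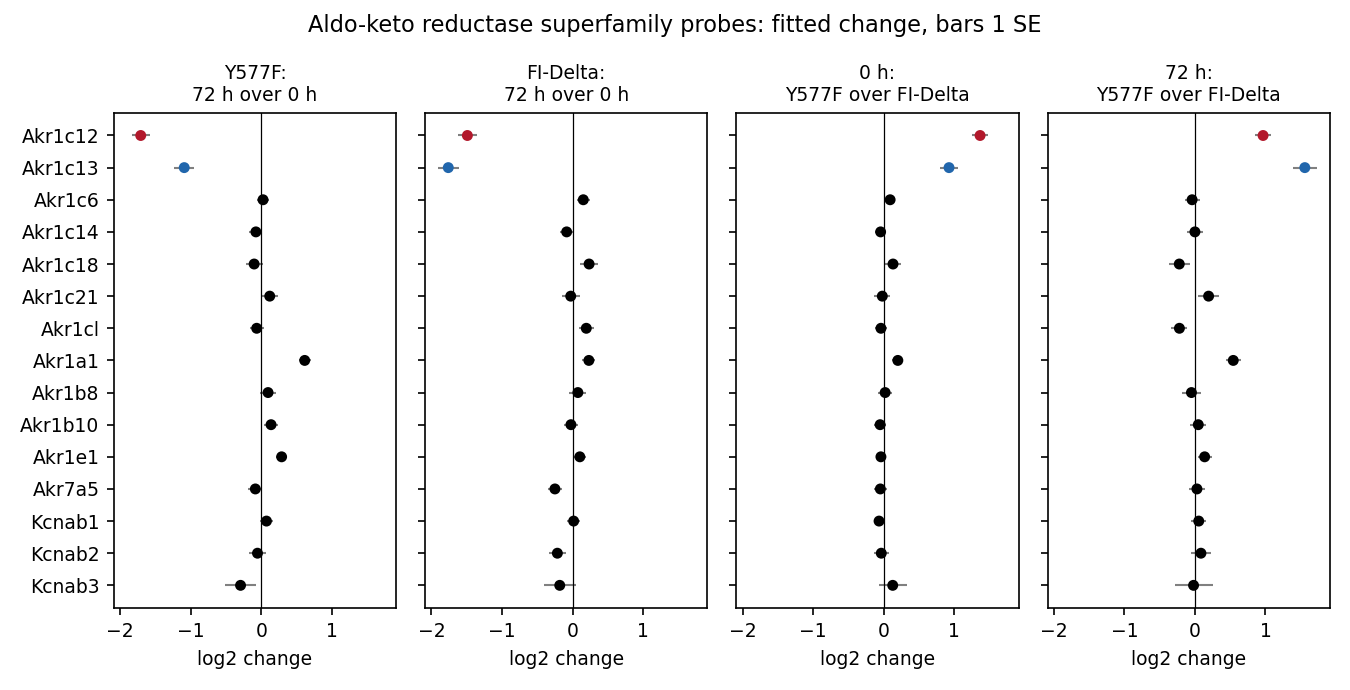
Fitted log2 change ± 1 standard error of Akr1c12 (red), Akr1c13 (blue) and 13 other aldo-keto reductase superfamily probes (black), in panels for 72 h over 0 h in Y577F and in FI-Delta cells and for Y577F over FI-Delta at 0 h and at 72 h. Most black points lie near 0, while Akr1c12 and Akr1c13 lie further from 0 than any of them in each panel. Akr1a1 is at 0.62 in the Y577F time panel and at 0.54 in the 72 h panel.

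Enzymes of neighbouring pathways moved in both directions. Of 24 carbonyl reductase and hydroxysteroid dehydrogenase probes, 7 rose and 4 fell over time in Y577F cells, and 6 rose and 2 fell in FI-Delta cells, so declines like those of Akr1c12 and Akr1c13 were the minority. Hsd17b11, a dehydrogenase of lipid droplets, rose by 0.93 ± 0.10 in Y577F and by 0.50 ± 0.10 in FI-Delta cells. Hsd11b1, which regenerates active glucocorticoid, rose by 0.86 ± 0.11 in FI-Delta cells and was lower in Y577F than in FI-Delta cells at 72 h (-1.65 ± 0.12). At 72 h 1 probe of this list was higher and 4 lower, and at 0 h only Hsd3b7 was higher (0.37 ± 0.08), a call lost without any 1 array other than FI-Delta time array 1. Without array 1 or 2 of the Y577F time arrays 4 or 3 probes rose and 2 or 1 fell there. The 2 that fell in FI-Delta cells became 0 when Y577F time array 1 or 0 h array 1 was left out, and 1 when FI-Delta time array 2 or 3 or either 72 h array was left out. Leaving out either 72 h array left 2 lower and none higher at 72 h, none was higher without FI-Delta time array 2, and 2 were higher without 0 h array 3.

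Of 25 retinoid and alcohol dehydrogenase probes, 4 rose and none fell over time in each line, and 2 were lower in Y577F than in FI-Delta cells at each time. The 2 at 72 h became 0 without 72 h array 1 and 1 without 72 h array 2, and the 2 at 0 h became 0 or 1 without any 1 array other than 72 h array 2 and FI-Delta time array 2. Aldh1b1, a mitochondrial aldehyde dehydrogenase, rose by 0.71 ± 0.09 in Y577F and by 0.48 ± 0.09 in FI-Delta cells. Of 38 probes for targets of NRF2, a transcription factor that controls many NADPH-dependent detoxifying enzymes, 14 rose and 3 fell in Y577F cells and 11 rose and none fell in FI-Delta cells. The quinone reductase gene Nqo1 rose by 1.14 ± 0.13 and the ferritin gene Fth1 by 1.19 ± 0.08 in Y577F cells, and the cystine transporter gene Slc7a11 rose by 1.00 ± 0.15 in FI-Delta cells. Gsr, the glutathione reductase, was lower in Y577F than in FI-Delta cells at 72 h (-1.38 ± 0.15) and at 0 h (-1.03 ± 0.11), opposite to the pair. At 72 h 8 NRF2 target probes were higher and 3 lower, and at 0 h 1 was higher and 2 lower. The 14 became 9 without Y577F time array 1, the 11 became 7 without 0 h array 1 and 6 without FI-Delta time array 3, and the 8 became 4 and 1 without 72 h array 1 and 2. At 0 h none was higher and 1 lower without 0 h array 1, and 2 were higher without Y577F time array 2. In FI-Delta cells 1 fell without FI-Delta time array 1.

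Of 18 probes for prostaglandin and leukotriene enzymes, 6 rose in each line over time, and 2 fell in Y577F cells (1 without Y577F time array 1). Ptgr1, a reductase of prostaglandins and leukotriene B4, rose by 0.65 ± 0.11 in Y577F and by 0.91 ± 0.11 in FI-Delta cells. Lta4h, which makes leukotriene B4, was lower in Y577F than in FI-Delta cells at 72 h (-2.07 ± 0.12) and at 0 h (-0.999 ± 0.089). It was the only probe of this list called at 0 h. At 72 h 4 were lower (2 without 72 h array 2) and 1 higher (none without either 72 h array).

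Among response genes of IL-3 and of STAT5, a transcription factor that IL-3 activates, all probes called between the lines were higher in Y577F cells. Of 27 probes, 13 were higher and none lower at 72 h, and 7 were higher and none lower at 0 h, with medians of 0.36 and 0.14 against 0.01 and -0.01 for all probes. Without 72 h array 1 or 2 the 13 became 3 or 4, and without any 1 of the 0 h arrays the 7 became 3. Gzmb, the granzyme B gene, was higher by 2.71 ± 0.14 at 72 h and by 0.86 ± 0.11 at 0 h. Csf2rb2, which encodes the beta chain specific to the mouse IL-3 receptor, was higher by 1.30 ± 0.11 at 72 h, and its probe may also detect the related common beta chain. Over time the list split, with 9 probes rising and 6 falling in Y577F cells (5 and 3 without Y577F time array 1) and 5 rising and 8 falling in FI-Delta cells (5 falling without FI-Delta time array 3). Socs1, a feedback inhibitor of cytokine signalling, fell by 0.98 ± 0.15 in Y577F and by 0.87 ± 0.16 in FI-Delta cells and was higher in Y577F cells at 0 h (0.82 ± 0.14), like Akr1c12 and Akr1c13. Id2, a regulator of differentiation, rose by 1.82 ± 0.12 in Y577F and by 1.54 ± 0.12 in FI-Delta cells.

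Markers of differentiated myeloid cells moved beside these changes. Of 14 probes in the neutrophil granule list, 2 rose and 6 fell over time in Y577F cells and 12 rose and none fell in FI-Delta cells, and 13 were lower in Y577F than in FI-Delta cells at 72 h and 12 at 0 h (medians -0.29, 1.17, -2.69 and -1.06). This list also holds neutrophil genes that do not encode granule proteins, such as the receptor gene Csf3r, which rose by 1.29 ± 0.10 in Y577F cells. Of 15 macrophage probes, 13 rose in Y577F and 10 in FI-Delta cells and none fell, with 10 higher and 1 lower in Y577F cells at 72 h, and 4 higher and 1 lower at 0 h (medians 1.78, 0.63, 0.88 and 0.11). Without 0 h array 1 no macrophage probe was higher at 0 h, 72 h array 1 left out gave 2 lower at 72 h, and the lower call at 0 h was lost without 72 h array 1 or any 1 of the 0 h arrays. Of 23 mast cell and basophil probes, 6 rose and 6 fell in Y577F cells, 4 rose and 6 fell in FI-Delta cells, 8 were higher and 2 lower in Y577F cells at 72 h and 4 were higher and 1 lower at 0 h (medians -0.09, 0.03, 0.19 and 0.09). The 4 that rose in FI-Delta cells became 1 when FI-Delta time array 3 or 0 h array 1 was left out, and 2 when FI-Delta time array 2, 72 h array 1 or 0 h array 2 was. At 72 h 3 were higher without 72 h array 2 and 1 lower without 72 h array 1. The 4 higher at 0 h became none without 0 h array 1, 1 without 0 h array 3, and 2 when Y577F time array 2, 72 h array 1 or 0 h array 2 was left out, and the lower call was lost without 0 h array 1 or 2. Cpa3, the mast cell carboxypeptidase gene, fell by 2.57 ± 0.11 in FI-Delta cells and was higher in Y577F cells by 2.25 ± 0.12 at 72 h. Other called members of this list went the other way. Hdc was lower in Y577F cells at 72 h (-1.25 ± 0.10), and Fcer1g rose by 1.32 ± 0.09 in Y577F and by 0.87 ± 0.10 in FI-Delta cells. Summed marker levels cannot be had from ratios, and the part of other cell types in the changes of Akr1c12 and Akr1c13 was not tested.

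Genes with the most similar pattern were found by the cosine between the ratios on all 10 arrays. There were 5509 genes or probes without a single symbol with a root mean square log2 ratio of at least 0.3. From the genes named here, probes without a single symbol and Akr1c genes were left out, so such a probe may lie closer. These values are a description over arrays that share RNA. Closest to Akr1c12 were Cd48 (0.963), a surface glycoprotein of blood cells, Fut7 (0.958), which makes selectin ligands, Papss2 (0.958), which makes the sulfate donor for sulfation, and Cyp11a1 (0.952), the enzyme that starts steroid synthesis from cholesterol. Il18rap, Rtcb, Abhd17c and H2-Q7 followed with between 0.952 and 0.944. Cyp11a1 changed by -0.92 in Y577F and by -0.54 in FI-Delta cells over time, with 0.14 at 72 h and 0.61 at 0 h between the lines.

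Closest to Akr1c13 were Bcl2 (0.968), which blocks apoptosis, Diablo (0.966), which promotes it, and the platelet integrin gene Itga2b (0.966), followed by Bmyc, Aqp9, F9, the transcription factor gene Gata2 (0.950) and Cd48 (0.948). Itga2b changed by -0.85 in Y577F and by -1.99 in FI-Delta cells over time, with 1.71 at 72 h and 0.61 at 0 h between the lines, so that, like Akr1c13, it differed more between the lines at 72 h than at 0 h. The cosine between Akr1c12 and Akr1c13 was 0.941. Among all 5509, probes without a single symbol included, this put Akr1c13 at place 14 for Akr1c12, and Akr1c12 at place 19 for Akr1c13. Most opposite to Akr1c12 were Gm7426 (-0.963), Anxa1 (-0.960), the gene of an anti-inflammatory lipid-binding protein, Mcee and Gpr160. Most opposite to Akr1c13 were Spam1 (-0.991), Igf2 (-0.989), Gpr160 (-0.977) and Cyb5r4 (-0.969).

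**Figure D4:**
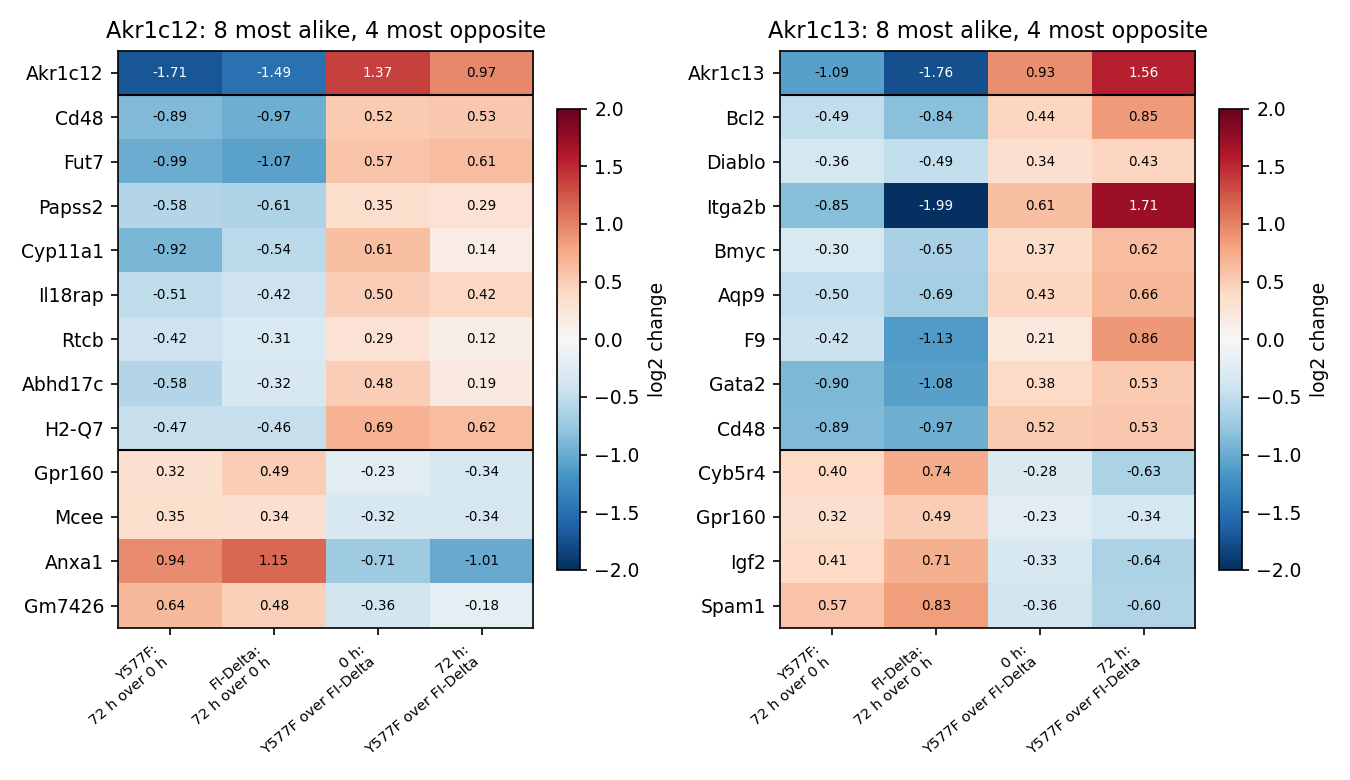
Log2 change of Akr1c12 (left, top row) and Akr1c13 (right, top row), of the 8 genes most alike below them and of the 4 most opposite at the bottom, for the 4 comparisons named under the columns. Blue is lower and red higher at 72 h or in Y577F cells. The genes most alike were chosen by their likeness on these same arrays, so they share the signs of the pair by choice. They fall over time in both lines and are higher in Y577F cells at both times, with Itga2b reaching -1.99 over time in FI-Delta cells.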

How the data were processed

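RNA had been extracted with Trizol, labelled indirectly with Cy dyes, with a pair of RNA samples on each spotted array, per the labels' protocols. The deposited values are log2 ratios normalised by the authors. The submitters' processing notes name limma, without its version or settings, and background correction and log base are not stated there. Base 2 and Cy5 over Cy3 were read as what limma writes. Of 23040 spots, 1243 control spots were left out, and of 21797 probes 16651 carried a single symbol, 137 several and 5009 none. Of the single-symbol probes 15973 matched the reference table by identifier, and 0 symbols changed. Array medians lay between -0.02 and 0.01, and there were 0 missing values. Without intensities the depth of a spot is unknown.

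Signs were turned by the titles. The 10 arrays entered as 9 hybridisations after averaging the FI-Delta dye swap. limma 3.58.1 in R 4.3.3 fitted 3 coefficients and a dye term for each probe (5 residual and 6.62 prior degrees of freedom). For the lines at 72 h, also for the lists, each comparison had its own coefficient (4 residual degrees of freedom), so that the 72 h value did not borrow from the comparisons that chose the pair. Tests were two-sided, with Benjamini-Hochberg adjustment over all 21797 probes and a call at an adjusted p under 0.05. The labels give FI-Delta the replicate numbers 1 and 2 and Y577F 3 and 4, except on the 3 line arrays where Y577F was labelled with Cy5, which number the lines the other way. For the loops and the replicate block alone, the lower number was read as FI-Delta on these arrays too, which goes against their labels.

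The pair and all gene lists were chosen with earlier results of these data known. Named genes are the pair, the Akr1c paralogs, up to 4 called members of each list by size of change and the 8 most and 4 least similar genes, and Net1, Klf6 and Pitrm1 were picked by their values, as neighbours that were called. Lists covered Akr1c paralogs, other aldo-keto reductases, carbonyl reductases and hydroxysteroid dehydrogenases, retinoid and alcohol dehydrogenases, NRF2 targets, prostaglandin and leukotriene enzymes, IL-3 and STAT5 response genes, and mast cell and basophil, neutrophil granule and macrophage markers. Probes of a gene were kept apart, and were averaged for the cosine. Promoter windows were aligned with Biopython 1.88. The fits were tested on simulated data with independent noise on each array and no dye effect. Such data cannot show how RNA shared between arrays or a dye effect alters the p-values.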

Additional observations from a re-analysis of the deposited data

Results flagged for a closer look

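Akr1a1, the aldehyde reductase outside the Akr1c branch, rose more over time in Y577F than in FI-Delta cells by a test of the difference itself (0.38 ± 0.10, limma adjusted p = 0.0337). Its change was 0.62 in Y577F cells and 0.23 in FI-Delta cells, and it was above 0 on all 5 time arrays. The call was lost without any 1 of 8 of the arrays, and with each comparison fitted from its own arrays the difference was 0.47 ± 0.15 (limma adjusted p = 0.195). Its part in the pattern of Akr1c12 and Akr1c13 was not tested.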

How the results depend on the processing

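The 17 alternatives were scaling, array weights, the dye term, averaging of probes, the dye swap entered as 2 arrays, the replicate block, the model and each of 10 arrays left out in turn. Both 72 h tests stayed past the threshold in the 12 that left the 72 h value as it was, and with scaling. The joint model and the replicate block draw the 72 h value partly from the comparisons that chose the pair, so their values (1.15 and 1.59, and 1.10 and 1.51, for Akr1c12 and Akr1c13) are given with no test. The estimates of Akr1c12 and Akr1c13 in the other comparisons kept their direction within 1 moderated standard deviation. The exception was the difference between the lines for Akr1c12, which turned to 0.15 with each comparison from its own arrays. Left-out arrays moved Akr1c12 and Akr1c13 at 72 h between 0.86 and 1.07 and between 1.29 and 1.82. Leaving out a 72 h array brought the dye term, fitted from the other arrays, into the value. The replicate block, with each RNA extract as its own level and no dye term, exchanged the numbers of the lines on 3 arrays, and the labels do not say that a number marks a shared culture or batch.

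Counts of called probes moved more, and the cause was not tested. With the replicate block 1842 probes were called in Y577F cells over time, 622 in FI-Delta cells, 25 at 0 h, 1140 at 72 h and 464 for the difference between the lines, against 3846, 1784, 305, 1908 and 2005. With each comparison from its own arrays there were 1033 in FI-Delta cells, 199 at 0 h and 406 for the difference, and with array weights 3989 in FI-Delta cells and 495 at 0 h, where 2 Akr1c paralogs were called in FI-Delta cells. Leaving out single arrays gave 2065 to 3798 in Y577F cells (lowest without Y577F time array 1), 988 to 2110 in FI-Delta cells (lowest without FI-Delta time array 3), 76 to 333 at 0 h (lowest without 0 h array 1), 550 to 1962 at 72 h (lowest without 72 h array 2) and 985 to 1976 for the difference (lowest without 72 h array 2), with 0 to 1 paralogs called for it.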
